A study of Mus musculus with 2 samples.

Results

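DNA methylation across the 2 paternally methylated imprinted domains of chromosomes 12 and 9 was lower on average in XX than in XO mESCs, with XX the lower at 419 of the cytosines read by RRBS, the higher at 221 and equal at 249. XX was thus the lower at 47.1% of them, where it was the lower at 53.5% of all listed autosomal cytosines. The Dlk1-Meg3 domain was followed from 5 kb upstream of Dlk1 to the end of Mirg together with the bodies of Begain and Dio3, and the Rasgrf1 domain from 40 kb upstream of Rasgrf1 to its end, by GENCODE M21 on GRCm38. These intervals held 889 of the 1782730 cytosines in the deposited table, 802 in the Dlk1-Meg3 domain and 87 in the Rasgrf1 domain. Each value is the percent of reads that kept the cytosine after bisulfite treatment (%mC), and the cytosines of the strands of a CpG are listed separately. Cytosines that lie close together can take their values from the same reads, so counts of positions are not counts of independent measurements.

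The cells were Xmas mESCs, female embryonic stem cells of strain C57/Bl6 in which GFP and mCherry reporters mark different X chromosomes. They were grown for 7 passages by the modified culture method according to the labels, and were sorted by FACS into XX cells, which carry both reporters, and XO cells, in which an X chromosome is lost. The paper gives another number of passages. There was 1 XX library and 1 XO library, so no difference has a replicate error, none was tested, and library and karyotype cannot be told apart. The depth is unknown. The cells are of an inbred strain, so a value between 0 and 100% can be a share of cells or of parental alleles, and these cannot be told apart.

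Most imprinted genes take their parental mark from the egg, whereas the Dlk1-Meg3, Rasgrf1 and H19 domains are marked in sperm. At Dlk1-Meg3 the mark lies on an intergenic differentially methylated region between Dlk1 and Meg3. The paternal chromosome expresses the protein-coding genes Dlk1, Rtl1 and Dio3, and the maternal chromosome the non-coding RNAs Meg3, Rian and Mirg, which carry most of the small RNAs of the domain. At Rasgrf1 the mark lies far upstream of the gene next to an array of tandem repeats. ZFP57, a zinc finger protein, binds the hexamer TGCCGC when its CpG is methylated and keeps imprints in embryonic stem cells.

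In the 6 kb that hold the intergenic region, 16 to 10 kb upstream of Meg3, the table listed 12 cytosines, 4.03% of those at the 149 CpGs of the reference. They form 2 groups, the first at chr12:109525712-109525792 and the second at chr12:109526678-109526737, both intergenic. Their sequences on the forward strand of GRCm38 are shown with 5 bases on either side, with each CpG that has a listed cytosine in capitals.
Meg3 upstream group 1: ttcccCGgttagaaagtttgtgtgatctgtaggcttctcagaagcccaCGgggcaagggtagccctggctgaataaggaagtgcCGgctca
Meg3 upstream group 2: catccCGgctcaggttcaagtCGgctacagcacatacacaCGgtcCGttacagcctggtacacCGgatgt
The same stretch holds TGCCGC 10 times on the 2 strands, against a median of 0 in the 19479 windows of that length on chromosome 12, of which 26.7% hold it at all and 0.00513% hold it as often. The densest group of these hexamers, at chr12:109528296-109528444, contains 5 of them in 149 bases and 20 CpGs, of which 0 were listed. It is shown on the forward strand with the hexamers in capitals, because it lies 1562 bp or more from any listed cytosine.
Meg3 upstream hexamer group: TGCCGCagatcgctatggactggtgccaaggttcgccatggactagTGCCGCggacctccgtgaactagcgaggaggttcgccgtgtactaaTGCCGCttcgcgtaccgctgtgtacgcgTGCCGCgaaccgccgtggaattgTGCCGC
The stretch 40 to 28 kb upstream of Rasgrf1 held 8 listed cytosines, 2.33% of those at its 172 CpGs, again in 2 intergenic groups. They are at chr9:89874612-89874692 and chr9:89878077-89878315, and are shown in the same way.
Rasgrf1 upstream group 1: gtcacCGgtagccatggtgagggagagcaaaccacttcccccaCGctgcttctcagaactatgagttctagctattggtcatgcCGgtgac
Rasgrf1 upstream group 2: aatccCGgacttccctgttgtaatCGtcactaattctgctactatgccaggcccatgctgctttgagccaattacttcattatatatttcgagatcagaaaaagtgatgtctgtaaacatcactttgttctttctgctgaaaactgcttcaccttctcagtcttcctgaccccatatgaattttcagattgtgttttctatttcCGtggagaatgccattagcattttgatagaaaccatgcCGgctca
TGCCGC occurs 10 times here too, as often as in 0.0397% of the 10075 windows of that length on chromosome 9, of which 49.9% hold it at all. A group of 6 hexamers at chr9:89879598-89879893 has 28 CpGs and again 0 listed cytosines, and lies 1286 bp or more from the nearest one.
Rasgrf1 upstream hexamer group: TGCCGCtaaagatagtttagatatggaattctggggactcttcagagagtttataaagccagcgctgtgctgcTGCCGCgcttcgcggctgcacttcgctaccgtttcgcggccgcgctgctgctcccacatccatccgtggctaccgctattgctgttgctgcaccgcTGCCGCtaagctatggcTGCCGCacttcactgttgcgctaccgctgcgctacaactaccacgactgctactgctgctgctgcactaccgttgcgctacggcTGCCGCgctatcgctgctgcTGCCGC
In both stretches the listed cytosines therefore lie outside the densest hexamer group, although single hexamers come within 21 and 25 bp of one. A hexamer is a match of letters and does not show that ZFP57 was bound.

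The 12 cytosines upstream of Meg3 averaged 24.4% in XX and 27.3% in XO mESCs, with SDs over cytosines of 9.73 and 14.4. XX was lower at 7 of them and higher at 5, and the mean difference, XX minus XO, was -2.94 percentage points. In group 1, XX values were 24.1, 11.1, 14.9 and 6.38% in order of position, and XO values were 22.6, 18.8, 25.7 and 31.4%, so that XX was the lower at 3 of 4. In group 2 the 8 cytosines averaged 29.5% in XX and 28.7% in XO, and the order of the libraries depended on the strand. The 4 forward cytosines were at 27.4% in XX and 42.7% in XO, whereas the 4 reverse cytosines were at 31.6% in XX and 14.7% in XO. Autosomal groups of 5 or more cytosines with an XO mean within 5 points of that of group 1 had a median of 15.6% in XX. For group 2 this median was 17.6%. Each strand of a fragment is read on its own in RRBS. At the 4 CpGs listed on both strands, the strands differed by a median of 27.9 points in XO but 2.33 points in XX, against medians of 11.9 and 12.4 points at the 42 such CpGs of the 2 domains with a strand mean of at least 20% in XO. All 4 belong to those 42. Agreement between strands is a measure of noise and not replicate error. Over the 12 cytosines, the forward strand was at 24.1% in XX and 35.3% in XO, and the reverse strand at 24.6% and 19.3%. The mean difference of -2.94 points thus joins opposite differences on the strands (-11.2 points forward and 5.34 points reverse). It does not show how far single cytosines differed.

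The 8 cytosines upstream of Rasgrf1 averaged 35.3% in XX and 44.1% in XO (SD over cytosines 16 and 9.33), a difference of -8.81 points, and XX was the lower at 7 of 8. Group 1 was at 23.7% in XX and 38.7% in XO, with XX values of 9.38, 37.5, 21.7 and 26.1% against XO values of 32.5, 40, 36.8 and 45.6%. Group 2 was at 46.9% and 49.5%, and its last cytosine was at 60.0% in XX and 36.8% in XO, the exception to the direction of the other 7. The levels in XO ran from 32.5 to 58.8%. Their mean of 44.1% was close to the 44.3% of all autosomal cytosines outside CpG-dense sequence (defined below), where all 8 lie. Autosomal groups of 5 or more cytosines with an XO mean within 5 points of that of group 1 had a median of 22.9% in XX. For group 2 this median was 28.9%. A further group of 5 cytosines at chr9:89885782-89886081, 24126 bp upstream of the gene start and outside that stretch, was lower in XX at all 5 positions. Its mean was 17.0% in XX and 57.3% in XO, a difference of -40.3 points. XX values ran from 6.67 to 30.8% and XO values from 44.0 to 73.3%. Only 2.94% of the 74355 autosomal groups of 5 or more cytosines, those in CpG-dense sequence included, had a lower difference. Such groups with an XO mean within 5 points of 57.3% had a median of 34.1% in XX. Its sequence is shown with the CpGs listed in capitals.
Rasgrf1 24 kb upstream: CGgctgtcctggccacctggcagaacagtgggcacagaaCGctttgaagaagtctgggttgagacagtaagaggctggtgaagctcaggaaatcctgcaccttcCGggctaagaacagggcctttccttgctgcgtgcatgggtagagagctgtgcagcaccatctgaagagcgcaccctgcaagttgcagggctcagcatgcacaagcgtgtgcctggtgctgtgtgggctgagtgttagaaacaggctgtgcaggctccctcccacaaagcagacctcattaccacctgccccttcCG

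**Figure D1:**
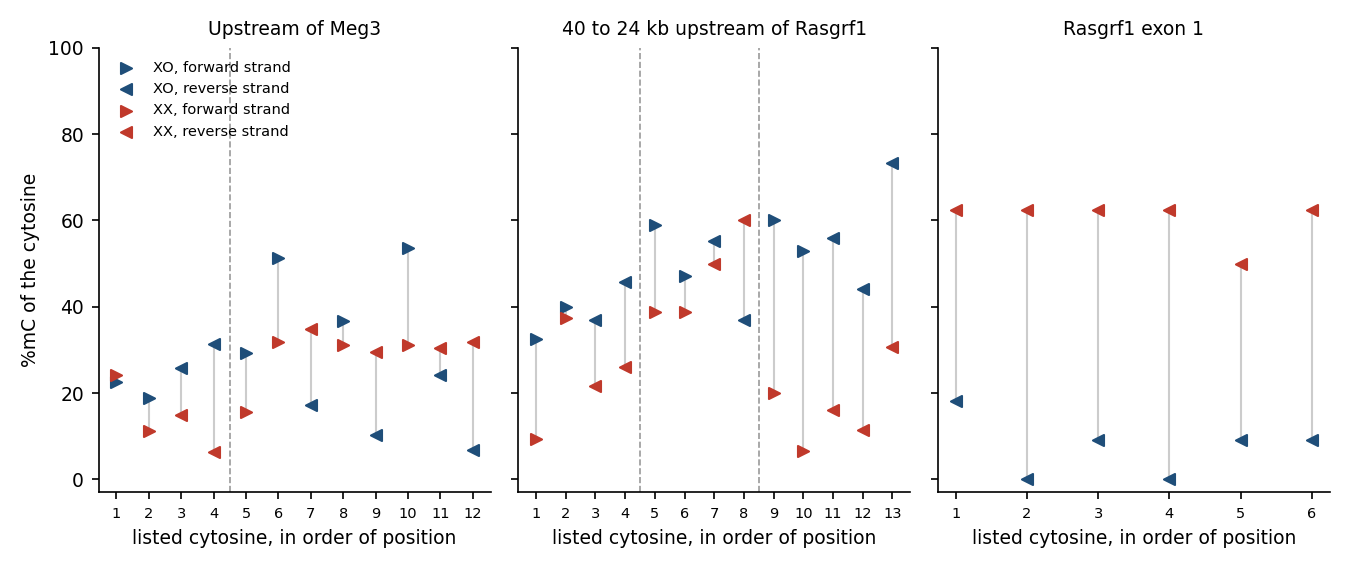
%mC of single cytosines (y axis) in order of position (x axis) upstream of Meg3, 40 to 24 kb upstream of Rasgrf1 and in exon 1 of Rasgrf1, for XX (red) and XO (blue), with the triangle pointing right for the forward and left for the reverse strand. Dashed lines mark gaps of over 300 bp. Upstream of Meg3 the reverse strand is higher in XX and the forward strand lower from cytosine 5 on, 24 kb upstream of Rasgrf1 (cytosines 9 to 13) XX is the lower throughout, and in exon 1 XX is the higher at all 6.

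Over the whole Dlk1-Meg3 domain, the average was 13.2% for XX and 18.9% for XO, and over the Rasgrf1 domain it was 24.4% and 33.9%, differences of -5.76 and -9.51 points. Begain held 507 of the 802 cytosines of the first domain, whose difference was -11.4 points without the bodies of Begain and Dio3 and -14.6 points with each group of neighbouring cytosines (gaps of at most 300 bp) counted once. On the forward strand the Rasgrf1 domain differed by -16.2 points and on the reverse strand by -2.04 points. The reverse strand includes 6 cytosines of Rasgrf1 exon 1, described below, that were all higher in XX. All autosomes had 17.6% and 25.7%, a difference of -8.11 points. Of the 889 cytosines, 149 (16.8%) were at least 20 points lower in XX, where 22.4% of the 1756096 autosomal cytosines were. At least 20 points higher in XX were 24 (2.70%), where 3.69% of autosomal cytosines were. The share of cytosines in CpG-dense sequence was larger here than over autosomes, 589 of 889 against 919298 of 1756096. A cytosine counted as CpG-dense if 50% or more of the bases within 250 bp of it were G or C and CpGs there reached over 0.6 of the number that base composition predicts. Outside such sequence, the 300 remaining cytosines were at 31.4% in XX and 47.0% in XO, a difference of -15.6 points, and those of the autosomes were at 28.8% and 44.3%, a difference of -15.4 points. In CpG-dense sequence the members were at 5.51% and 6.82% and the autosomes at 7.34% and 8.79%. Split by CpG density, the pooled members thus had mean levels and differences close to those of the autosomes. The domains were not alike in this: outside CpG-dense sequence the difference was -14.4 points in the Dlk1-Meg3 domain and -20.9 points in the Rasgrf1 domain. There the Rasgrf1 domain was lower in XX on both strands (-23.2 points forward and -17.9 points reverse).

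The gene bodies differed widely. Begain, which encodes a protein of the postsynaptic density and lies at the centromeric edge of the domain, held 507 of the cytosines and was at 6.41% in XX and 9.82% in XO. Its promoter (1 kb either side of the start, as for the genes that follow) was at 0.957% in XX and 6.73% in XO over 104 cytosines. No XX value there was above 8.70%, whereas XO values reached 38.1%. All 104 lie in CpG-dense sequence. At least 20 points lower in XX were 14 of them (13.5%), where 6.45% of autosomal cytosines in such sequence were. Neighbouring cytosines among the 14 can have been given by the same reads. Dlk1 encodes a transmembrane ligand related to Delta that restrains adipocyte differentiation. Both its body (1.41% and 3.25%, 63 cytosines) and its promoter (1.17% and 3.24%, 61 cytosines) were nearly unmethylated in both libraries. These are largely the same cytosines, since the body was read in 1 group near its start, at chr12:109453340-109453968. The rest of the body had no listed cytosine. All 38 reverse cytosines of the Dlk1 body averaged 0% in XX and 2.40% in XO.

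Meg3, a non-coding RNA expressed from the maternal chromosome, had the highest promoter methylation of the 5 members whose promoters were read. It was at 32.7% in XX and 41.4% in XO over 18 cytosines, a difference of -8.78 points, while the medians of 20696 autosomal promoters were 9.15% and 11.3%. The forward strand hardly differed (41.2% and 42.8%, 11 cytosines) and the reverse strand did (19.2% and 39.2%, 7 cytosines). The 300 bases from RefSeq at chr12:109540746-109541045 (GRCm38, forward strand) show the part of this promoter around the start. Capitals mark the 7 CpGs with a listed cytosine, and the hexamer occurs once, on the reverse strand, as it does at least once in 11.6% of 32851 RefSeq promoters.
Meg3 promoter: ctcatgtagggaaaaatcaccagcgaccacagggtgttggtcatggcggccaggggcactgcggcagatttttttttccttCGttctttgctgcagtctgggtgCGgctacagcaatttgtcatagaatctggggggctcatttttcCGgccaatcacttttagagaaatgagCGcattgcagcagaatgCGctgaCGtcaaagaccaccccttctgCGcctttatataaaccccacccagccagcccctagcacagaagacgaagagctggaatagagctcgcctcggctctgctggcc
The Meg3 body (30 cytosines) was at 32.7% in XX and 40.3% in XO. Groups of 5 or more cytosines along Meg3 did not share a direction. The 14 cytosines at chr12:109540591-109540963, upstream of the start, were at 36.3% in XX and 44.1% in XO. The 7 at chr12:109545909-109546191, in an exon, were at 20.9% and 29.0%. The 13 at chr12:109549676-109549827, also in an exon, were at 36.9% and 34.4%, and 9 of these 13 were higher in XX. The small RNA gene Gm27596, which starts within Meg3, shares the cytosines of the Meg3 promoter.

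Just downstream of Meg3 the gap between the libraries was wider than in its body. The 20 cytosines between the end of Meg3 and Rtl1 were at 30.6% in XX and 60.7% in XO, a difference of -30.2 points. They all lie outside CpG-dense sequence. At least 20 points lower in XX were 13 of them (65%), where 39.9% of autosomal cytosines outside such sequence were. Of the 20 cytosines, 12 form a group at chr12:109585901-109586010, 44900 bp downstream of the Meg3 start and between the microRNA genes Mir337 and Mir540. This group was at 20.8% in XX and 63.6% in XO and was lower in XX at all 12 positions. At 11 of them XX was at least 20 points lower, to be read against the same 39.9%. The 12 lie close together, so that the same reads can have given several of these values. The difference, -42.7 points, was the largest in the domain among groups of 5 or more. A lower one was found in 1.97% of autosomal groups, a share that includes groups in CpG-dense sequence. Autosomal groups with an XO mean within 5 points of that of this group had a median of 38.6% in XX. The forward strand fell from 83.2% in XO to 28.6% in XX, and the reverse strand from 36.1% to 9.96%. Within XO the strands of this group thus lay further apart than within XX. Its sequence carries 9 CpGs, each with a listed cytosine, in capitals.
Between Mir337 and Mir540: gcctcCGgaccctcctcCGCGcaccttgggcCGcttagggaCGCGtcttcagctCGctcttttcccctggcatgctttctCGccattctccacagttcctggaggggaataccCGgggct
The 3 cytosines at chr12:109586504-109586655, further downstream, had the opposite order, with 60.3% in XX and 38.2% in XO. Together with the 12 they make up the 15 cytosines within 1 kb of the starts of Mir337, Mir3544, Mir540 and Mir665, 28.7% in XX and 58.5% in XO.

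Rtl1, a gene derived from a retrotransposon and required in placental capillaries, had the most methylated body of the 8 genes, 58.6% in XX and 79.0% in XO over 22 cytosines. XX was the lower at 20 of these. MicroRNAs such as miR-433 and miR-127 lie antisense to Rtl1, and 4 of the listed cytosines fall within the Mir433 hairpin, which was at 76.0% in XX and 83.5% in XO. Each mature arm contains 1 of them, and the arms are printed from RefSeq with the seed (bases 2 to 8) in capitals.
mmu-miR-433-5p: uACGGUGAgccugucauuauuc
mmu-miR-433-3p: aUCAUGAUgggcuccucggugu
The cytosine in miR-433-5p was at 80.0% in XX and 95.8% in XO, and that in miR-433-3p at 86.1% and 68.4%. Around the starts of the microRNA genes in Rtl1 with at least 5 cytosines within 1 kb, XX was lower at each of them. Mir433 (9 cytosines) was at 62.3% and 78.0%, Mir127 (10) at 56.9% and 75.8%, and Mir434 (7) at 55.7% and 85.7%. These windows overlap. Only 3 of the 93 microRNA, snoRNA and other small RNA genes of the domain had a listed cytosine in their own sequence, namely Mir433, Mir673 and the snoRNA gene Gm27604. Mir673 (1 cytosine) was at 37.5% in XX and 59.1% in XO, and Gm27604 (1 cytosine) at 30.2% and 62.5%.

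Rian, the host of the box C/D snoRNAs of the domain, was at 37.3% in XX and 52.4% in XO over 23 cytosines. Mirg, the host of the distal microRNA cluster, was at 35.8% and 65.1% over 6 cytosines, all lower in XX. Their own promoters and that of Rtl1 held 0 listed cytosines. Among the 8 bodies, those of Rtl1 and Mirg were at least 20 points lower in XX (-20.5 and -29.3 points), as were 16.3% of 23711 autosomal gene bodies with at least 3 cytosines, and the median autosomal body differed by -7.12 points. The count of 2 of 8 rests on few cytosines. Both bodies started high in XO, where 98.2% of autosomal bodies lay below Rtl1 and 92.6% below Mirg. As a ratio, the XX mean was 0.741 of the XO mean at Rtl1 and 0.551 at Mirg. Over autosomal cytosines outside CpG-dense sequence, where all cytosines of both bodies lie, this ratio was 0.652.

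Dio3, which encodes the deiodinase that inactivates thyroid hormones, was the one member whose body was higher in XX. Its body (25 cytosines) was at 13.8% in XX and 6.26% in XO, and its promoter (76 cytosines) at 9.09% and 3.96%, differences of 7.55 and 5.14 points. In the promoter 47 cytosines were higher and 8 lower in XX, and both strands had this order (6.16% and 0.287% forward, 10.9% and 6.22% reverse). These are largely the same cytosines, since a group of 43 at chr12:110278743-110279285 across the Dio3 start lies within the promoter and includes all 25 of the body. The group was at 14.7% in XX and 6.86% in XO. At least 20 points higher in XX were 0 of the 8 bodies, and 0.224% of autosomal bodies were, while 13.1% of autosomal bodies were higher in XX by any amount.

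**Figure D2:**
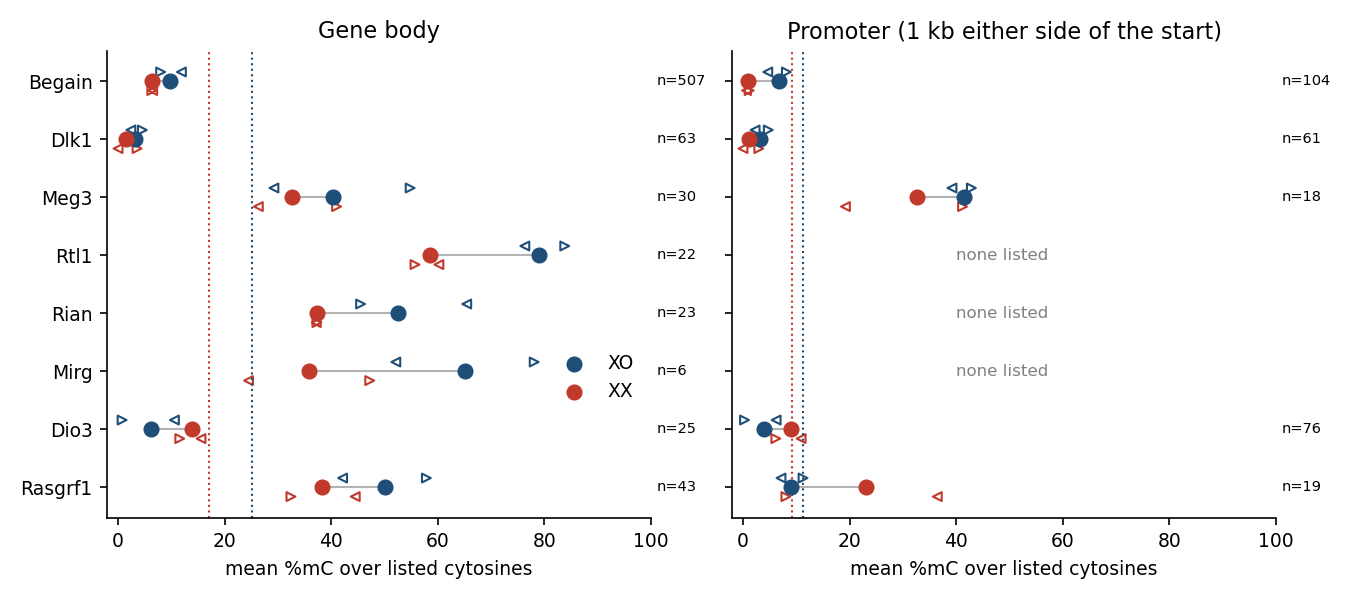
Mean %mC (x axis) of the body and the promoter of each member gene (y axis) in XX (red) and XO (blue), 1 library each, with small triangles for the means of the forward (pointing right) and reverse (pointing left) strands and n for the number of listed cytosines. Dotted lines are the medians over autosomal genes, 17.2 and 25.2% for bodies and 9.15 and 11.3% for promoters. XX lies left of XO for 7 of 8 bodies, and right of it for the body and promoter of Dio3 and the promoter of Rasgrf1.

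**Figure D3:**
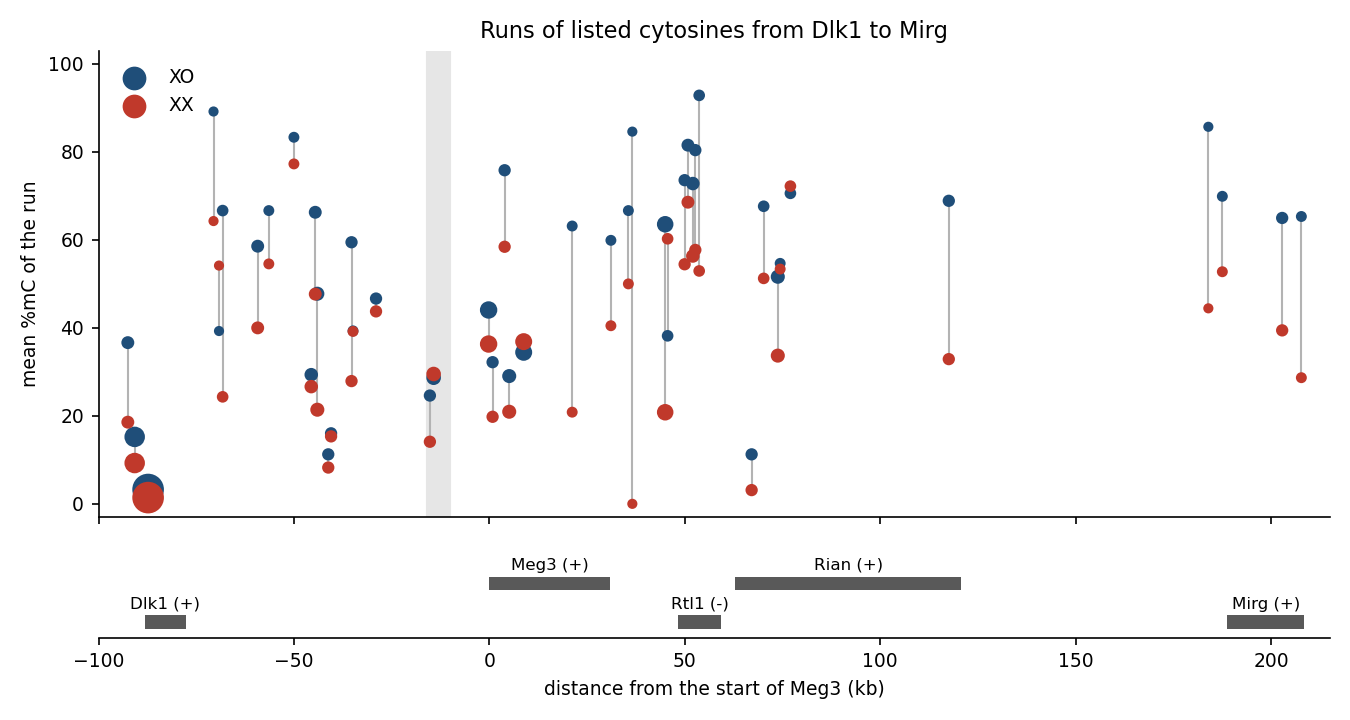
Mean %mC (y axis) of each group of listed cytosines with gaps of at most 300 bp against its distance from the start of Meg3 in kb (x axis), in XX (red) and XO (blue), with the point area growing with the number of cytosines and the genes drawn to scale below. The shaded band is 16 to 10 kb upstream of Meg3, where group 2 has nearly the same mean in both libraries (29.5 and 28.7%). Among groups of 5 or more, the gap is widest between Mir337 and Mir540 (20.8 and 63.6%). A group of 3 cytosines upstream of Meg3, at chr12:109472707-109472740, was at 24.3 and 66.7%.

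Counted in windows of 10 kb from Dlk1 to Mirg, XX was lower in 18 of 18 windows with at least 3 cytosines, as it was in 89.9% of 82954 such windows over autosomes. The smallest differences of these were -1.84 points in the window of Dlk1, 90 kb upstream of Meg3, and -2.92 and -2.94 points in the windows that start 30 and 20 kb upstream of Meg3, the second of which holds the intergenic region. The largest were -36.0 points 110 kb downstream, in Rian, and -31.4 points 30 kb downstream. Besides the group between Mir337 and Mir540, a group of 7 cytosines in an intron of the lincRNA gene Gm34081 was at least 20 points lower in XX, at 21.4% against 47.8% (chr12:109496872-109497030). Next in size were groups of 5 in the same intron (chr12:109496272-109496566, 47.7% in XX and 66.3% in XO), between Dlk1 and that gene (chr12:109481602-109481777, 40% and 58.6%) and upstream of Dlk1 (chr12:109448404-109448518, 18.6% and 36.6%), each lower in XX at all 5 positions.

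Rasgrf1 encodes an exchange factor that activates Ras in neurons, where the paternal copy is expressed. Its body was at 38.3% in XX and 50.2% in XO over 43 cytosines, with 34 of them lower in XX. On the forward strand the body was at 32.4% in XX and 57.9% in XO, and on the reverse strand at 44.5% and 42.1%. The reverse strand includes the 6 cytosines of exon 1 described next, which were all higher in XX. Outside CpG-dense sequence, the Rasgrf1 domain was lower in XX on both strands (-23.2 points forward and -17.9 points reverse). The promoter of Rasgrf1 went the other way from the body mean, at 23.0% in XX and 9.09% in XO over 19 cytosines. This difference of 13.9 points rested on 1 group of 6 cytosines in the coding part of exon 1, at chr9:89910202-89910262. There the XX values were 62.5% at 5 positions and 50% at the other, while XO values lay between 0 and 18.2%. The means were 60.4% and 7.58%, a difference of 52.8 points, and 99.99% of autosomal groups had a lower one. All 6 cytosines are on the reverse strand and lie close together, so that the same reads can have given several of these values. They are the cytosines of the CpGs in capitals here, which is the forward strand.
Rasgrf1 exon 1: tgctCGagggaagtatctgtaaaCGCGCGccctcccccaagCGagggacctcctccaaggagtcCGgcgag
Without this group the promoter difference was -4.06 points. The forward strand of the promoter was lower in XX (8.05% and 11.3%, 9 cytosines). The 31 cytosines at chr9:89908680-89909134, upstream of the start, were nearly unmethylated in both libraries, at 3.41% in XX and 4.91% in XO.
Within the gene, 3 other groups of at least 5 cytosines were each lower in XX at all positions. The 6 at chr9:89913273-89913376 were at 12.8% in XX and 33.0% in XO, the 5 at chr9:89953923-89953985 in a coding exon at 43.0% and 83.5%, and the 5 at chr9:89981498-89981612 in another coding exon at 46.0% and 63.0%. Without the 1 kb on either side of the start, the body difference was -22.3 points in place of -11.8. Of the 8 windows of 10 kb with at least 3 cytosines, 6 were lower and 2 higher in XX, the latter being the one with exon 1 and one 50 kb into the gene that held 4 cytosines (39.9% in XX and 22.4% in XO).

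**Figure D4:**
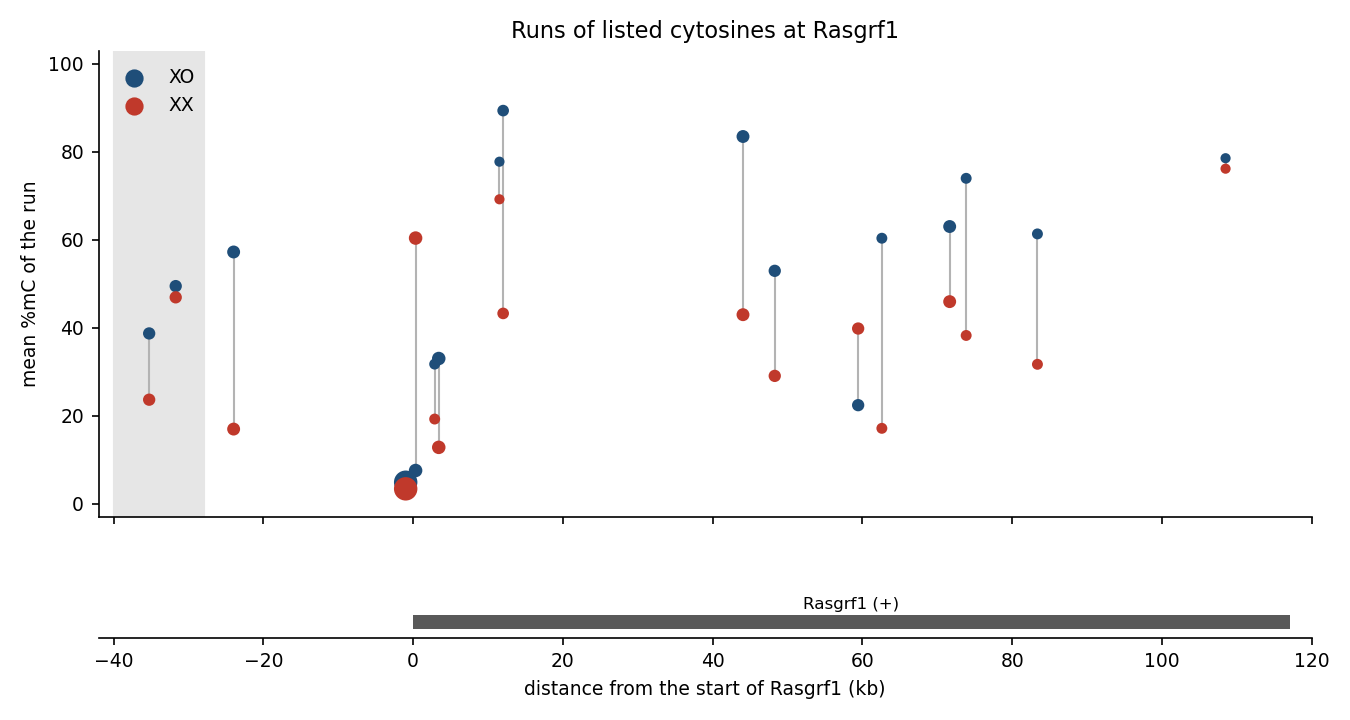
Mean %mC (y axis) of each group of listed cytosines against its distance from the start of Rasgrf1 in kb (x axis), in XX (red) and XO (blue), with the point area growing with the number of cytosines. The shaded band is 40 to 28 kb upstream, and XX lies above XO at 2 of 17 groups, 1 of them in exon 1 (60.4 and 7.58%).

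Among the 5 promoters with listed cytosines (Begain, Dlk1, Meg3, Dio3 and Rasgrf1), 0 differed by 20 points or more in either direction, where 11.4% of autosomal promoters were lower and 0.445% higher in XX by that much. Of the 28 groups of at least 5 cytosines in both domains, 5 (17.9%) were at least 20 points lower in XX, 2 of 22 in the Dlk1-Meg3 domain and 3 of 6 in the Rasgrf1 domain, where 32.0% of autosomal groups were. The exon 1 group was the 1 group at least 20 points higher in XX, where 0.436% of autosomal groups were. In any amount 23 of the 28 (82.1%) were lower, as were 84% of autosomal groups. The median difference was -9.78 points for these groups and -12.1 points for autosomal ones.

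**Figure D5:**
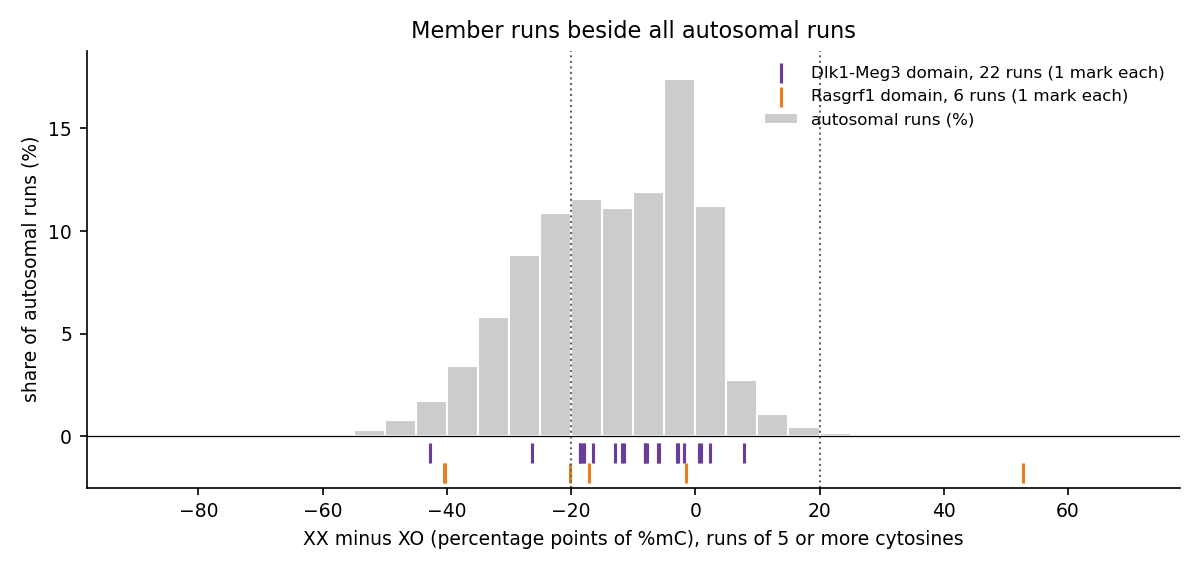
Share of the 74355 autosomal groups of 5 or more listed cytosines (y axis, percent) by their difference XX minus XO in percentage points (x axis, bins of 5 points), with 1 mark below the bars for each of the 22 groups of the Dlk1-Meg3 domain (purple) and the 6 of the Rasgrf1 domain (orange). Dotted lines mark 20 points either way, and the mark at 52.8 is exon 1 of Rasgrf1.

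Of the third paternally methylated region, 4 to 2 kb upstream of H19, 2 cytosines were listed, at 18.2% in XX and 42.5% in XO. Promoters of genes that flank the 2 domains were listed with at least 3 cytosines for 14 of 17 genes. Some of these genes share a promoter, and of the 12 distinct promoters 7 were lower and 5 higher in XX, where 29.6% of autosomal promoters were higher. Degs2 alone was lower by at least 20 points (31.6% and 53.0%). Promoters of 3 of 7 genes that protect imprints had at least 3 listed cytosines, and all 3 had differences smaller than 20 points. Fewer were listed for Dppa3 (2 cytosines, 64.3% in XX and 70.0% in XO) and Dnmt1 (1 cytosine, 10.7% and 16.7%). Zfp57 and Trim28 had none. Of the pluripotency genes, Pou5f1 (2.15% and 6.47%), Sox2 (6.74% and 8.04%) had promoters below the autosomal medians of 9.15% in XX and 11.3% in XO. The Zfp42 promoter was at 8.99% and 19.6%, and Nanog had no listed cytosine.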

How the data were processed

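RRBS was analysed for the XX and the XO library. DNA was extracted with a Zymo Quick DNA kit and libraries were made with a NuGEN Ovation Methylseq kit per the labels. The submitters' processing notes name bcl2fastq, Bismark and the mm10 build, without versions. The authors deposited the percent methylation of each cytosine in both libraries, with no read counts, so the coverage minimum and the depth are not given in the sources used here. All 1782730 rows had both values and 0 further sample columns were left unused. On GRCm38.p6, 890585 positions were forward cytosines of a CpG, 892094 reverse ones and 51 on no CpG. No row was removed.

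Means over listed cytosines were taken per region, gene body and promoter. Groups of cytosines (gaps of at most 300 bp) of 5 or more were compared with all autosomal groups, and gene features with all autosomal ones of 3 or more cytosines. Differences are XX minus XO. A call was 20 points. With 1 library per karyotype no test was made. The 8 genes, the regions and the lists were chosen with earlier results of these data known. Named were all 8 members, genes that start in the intervals with at least 5 cytosines within 1 kb, and groups in promoters, upstream stretches or among the 5 largest differences of a domain. Some smaller groups, and single small RNA genes, were named after their values were seen. Alternatives were the median, single strands, CpGs read on both strands, groups counted once, other boundaries and thresholds of 10 and 30 points. Code was tested on simulated data. Python 3.11.15, numpy 2.4.6, pandas 2.3.3 and matplotlib 3.10.9 were used.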

Additional observations from a re-analysis of the deposited data

How the results depend on the processing

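No paired analysis was possible because each karyotype had 1 library, and for the same reason no library could be left out. A shift of 5 points or more counted as moving a difference, and a factor above 1.5 as moving a share. The 4 regional differences were below 0 in 28 of 30 alternatives, and 20 of all 34 alternatives moved nothing. These counts include alternatives that could not move the value, because the same cytosines remained. Upstream of Meg3 one was the interval from 20 to 8 kb, which again gave -2.94 points. Leaving out cytosines at 0% or 100% in both libraries likewise removed none in either upstream stretch. For the Dlk1-Meg3 domain, counting each group of cytosines once gave -14.6 points and leaving out Begain and Dio3 -11.4 points. For the Rasgrf1 domain, the forward strand gave -16.2, the reverse strand -2.04, groups counted once -15.8 and the part beyond 1 kb of gene starts -16.1 points. Upstream of Meg3, the sign changed with the median (5.0) and the reverse strand (5.34), and the forward strand gave -11.2 points. Upstream of Rasgrf1, the interval from 34 to 26 kb gave -2.55 points. The share of cytosines lower in XX was 31.0% at a threshold of 10 points and 10.7% at 30 points, and the share higher in XX was 10.1% and 1.12%. Some of the 51 alternatives for single genes also kept the same cytosines, such as the bodies of Rtl1, Rian and Mirg without 1 kb around the start. Of the 51, 15 moved the value and 3 changed its sign. These were the Dlk1 body away from its start (5.36), the Rasgrf1 body on the reverse strand (2.37) and the Rasgrf1 promoter on the forward strand (-3.21 points). The Dlk1 value rests on the cytosines at chr12:109453918 and chr12:109453968 alone. Leaving out the exon 1 group, chosen after seeing the data, also turned the sign of the Rasgrf1 promoter (-4.06 points). The Dio3 body held no cytosine beyond 1 kb of its start, so that alternative gave no value. With 2 kb either side of the start or all transcript starts, the promoters of Rtl1 and Rian still had none listed. The causes were not tested. Unknown depth and the low share of CpGs listed limit both upstream stretches.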
